A study of Mus musculus with 8 samples.

Results

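Newborn mice that inherited a deletion of the Snrpn to Ube3a interval on the maternal chromosome were compared with wild-type mice, by the RNA of both strands of the locus in cerebral cortex. The comparison used 3 of the 8 samples of the series: 1 maternal deletion (del s-u/+) and 2 wild types (WT1 and WT2), all total RNA from C57BL/6 cortex at postnatal day 0. The members were chosen by these titles alone. The paternal chromosome of the maternal deletion mice is intact, so every RNA over the deleted span in these mice can come only from the paternal copy. The other total RNA samples are 1 mouse line with the deletion on the paternal chromosome (del +/s-u) and 2 samples that carry the maternal deletion and, on the paternal chromosome, a deleted Snrpn promoter, here called the double deletions. Their paternal promoter deletions are named 0.9 and 4.8, but title and genotype contradict each other as to which sample has which, so no value is assigned to either. The series description calls the wild types littermates of mutants, and the number of animals per sample is not stated. The deletion removes DNA from every cell and is not confined to a cell type, and in RNA of whole cortex fewer cells of a type and less RNA per cell cannot be told apart.

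Ube3a encodes an E3 ubiquitin ligase that tags proteins for degradation. In neurons it is an imprinted gene: the maternal copy is expressed, and the paternal copy is largely silent. Loss of the maternal copy of the human gene causes Angelman syndrome. A long RNA starts at the Snrpn end of the paternal chromosome, runs through the small nucleolar RNA clusters and reaches across Ube3a on the opposite strand, where it is called Ube3a-ATS. On the map used here (mouse build mm9) Ube3a is read from the plus strand and the Snrpn transcript from the minus strand, and the question of the comparison is which RNA of either strand is lost, kept or gained without the maternal copy of the interval.

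The RefSeq promoter windows of the genes at both ends of the interval are shown because their starts set the direction of the 2 transcripts; each window has 250 bases before and 50 after the start, is read 5′ to 3′ on the gene's own strand, and has CG dinucleotides in capitals. Their coordinates are on GRCm38.p6 and are not on the mm9 scale of the array. The Ube3a window lies at chr7:59228500-59228799 on the plus strand and holds 29 CG dinucleotides, a number reached by 12.9% of the 32851 promoter windows of the same length. The window of Snurf, the reading frame that shares its transcript with Snrpn, lies at chr7:60005150-60005449 on the minus strand and holds 7, which is also the median over all windows. These counts describe the letters only, since the array measured no methylation.
Ube3a: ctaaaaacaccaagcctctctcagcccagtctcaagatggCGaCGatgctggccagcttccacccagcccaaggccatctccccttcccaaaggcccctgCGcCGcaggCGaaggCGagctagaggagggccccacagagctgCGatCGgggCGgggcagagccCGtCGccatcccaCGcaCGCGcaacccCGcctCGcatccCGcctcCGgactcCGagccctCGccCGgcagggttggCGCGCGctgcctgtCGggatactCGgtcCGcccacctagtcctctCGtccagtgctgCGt
Snurf: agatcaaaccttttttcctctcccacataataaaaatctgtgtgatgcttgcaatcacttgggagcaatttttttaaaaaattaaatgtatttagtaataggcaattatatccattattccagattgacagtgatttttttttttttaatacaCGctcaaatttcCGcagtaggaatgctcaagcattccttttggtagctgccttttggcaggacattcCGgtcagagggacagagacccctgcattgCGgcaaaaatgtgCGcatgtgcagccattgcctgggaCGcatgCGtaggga

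The array tiles 1810 kb, chr7:65890585-67700765 (mm9), with 25248 probes on each strand, and has 3338 further probes elsewhere in the genome. The red median intensity was 161 on the maternal deletion array and 134.5 and 125 on the wild-type arrays. The local background was 37 to 38, and the share of spots well above it was 88.4%, 81.8% and 81.1%. The wild-type arrays correlated with each other at r = 0.996 across probes and with the maternal deletion at 0.983 and 0.982; probes are not independent replicates. Levels are log2 intensities relative to the same array's 75th percentile over probes outside the locus. Changes are the maternal deletion minus the mean of the wild types, and were tested with limma over 26 regions (13 on each strand), 356 bins of 10 kb, 21 differences within an array and 48837 probes. Only 1 sample carries the maternal deletion without another deletion, so it has no replicate check, and a p-value measures only the spread of the wild-type pair, pooled over the features of each fit. The calls depend on which samples set the spread. When either wild type was left out, the spread came from the double deletions, treated as 1 group although their paternal deletions are named differently. In those fits limma called no region and no bin. With all 6 total RNA samples and the double deletions as 1 group, it called 0 regions (5 at an unadjusted p under 0.05) and 0 bins (61 at that level). The files used here give probe positions and no gene names, so markers of cortex and of other cell types were not analysed.

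Both edges of the deletion were drawn from the paternal deletion array, so that the maternal array did not choose its own borders; the wild-type arrays are shared. On the plus strand the lower edge lay between probes starting at 66526853 and 66526901 and the upper edge between probes starting at 67147632 and 67147710. They bound a span of 620.8 kb that takes the 3′ part of Ube3a and everything up to the Snrpn end. The maternal deletion array placed both edges between the same probes. Ube3a is thus cut: its 5′ part (chr7:66480001-66526900), with the promoter end, is kept on both chromosomes, and its 3′ part (chr7:66526901-66570000) is left on the paternal chromosome only. The remaining borders are rounded positions that follow an earlier description of these data and no annotation of mm9 was used, so exons, introns and untranslated regions were not assigned.

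Along the plus strand the maternal deletion departed from wild type in a handful of places. Ube3a RNA fell over the deleted 3′ part, rose over the spared 5′ part next to the break, and plus-strand RNA rose over all of the tiled DNA beyond the upper edge. On the minus strand, which carries Ube3a-ATS, the levels were lower by a fraction of a log2 unit at most regions from Ube3a to Snrpn.

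**Figure D1:**
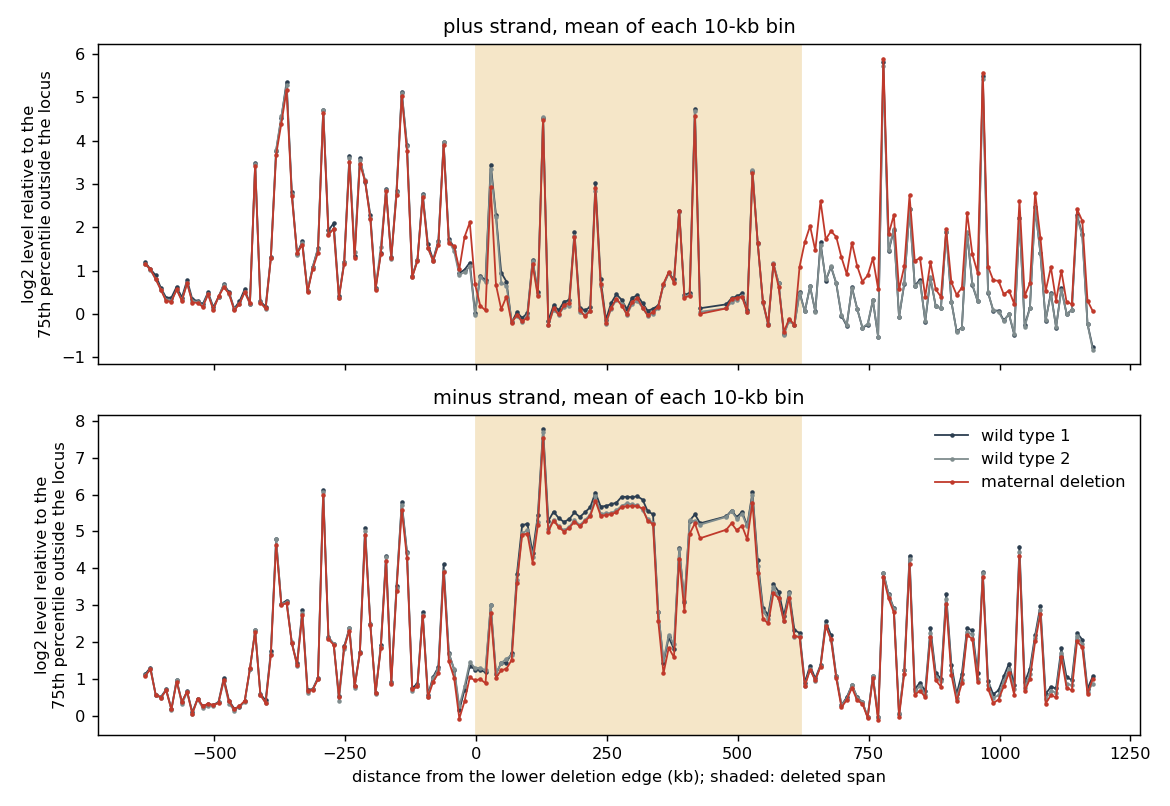
Mean log2 level of each 10-kb bin (y axis, relative to the 75th percentile outside the locus) against the distance from the lower deletion edge in kb (x axis), plus strand above and minus strand below, with 1 line for each of the 3 arrays and the deleted span shaded. The plus-strand lines part on both sides of the lower edge and beyond the upper edge. The maternal deletion is above both wild types on the spared sides and below both on the deleted side of the lower edge. The minus-strand lines run close together at up to 7.74.

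Over the deleted 3′ part of Ube3a the plus-strand level was 0.72 in the maternal deletion and 1.61 and 1.56 in the wild types. The maternal deletion was below both wild types, whose SD was 0.04 (n = 2). The change was -0.86 (SE 0.063), a 1.82-fold lower level, with an adjusted p of 2.7e-12 in limma. On the linear scale, where local background was subtracted and arrays were scaled outside the locus, the median intensity was 75.1 in the maternal deletion against 203 and 181, or 40.2% of wild type. Of 740 probes, 92.7% were below both wild types, against 53.7% of all probes on the array, and 339 of the 732 tested probes (46.3%) were called lower, where 9.71% of all tested probes were called in either direction and 1.22% lower. The 4 bins of 10 kb in this part were all called lower, by 0.47 to 1.58, where 21.9% of all bins were called in either direction and 6.46% lower. With the double deletions in the fit the adjusted p for the region was 0.067.

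The loss over the 3′ part was uneven. In 15 runs of at least 5 consecutive plus-strand probes, all lower by more than 1, the mean level was 0.95 in the maternal deletion and 2.72 and 2.73 in the wild types, over 194 probes. Over the other 546 probes of the 3′ part the mean level was 0.60 against 1.17 and 1.10, a change of -0.53. The runs were chosen by these changes, so both their change and their level, since a dim probe cannot fall far, are a description and support nothing. In wild type the runs ranged from bright to dim. The run closest to the break begins 4.25 kb past it (chr7:66531152-66531500), with 1.99 against 3.56 and 3.55. Short runs of 170 bases followed at chr7:66542225-66542394, with 1.23 against 2.92 and 2.99, and at chr7:66543765-66543934, with 1.05 against 2.87 and 2.99. The longest runs lay near the far end of the gene. At chr7:66561475-66563462 the level was 1.01 against 2.86 and 3.04, and at chr7:66564115-66566145 it was 0.996 against 2.84 and 2.95. The dimmest run, chr7:66569285-66569638, had -0.68 against 0.80 and 0.59.

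By distance, the plus-strand change was -0.67 in the first 5 kb past the lower edge, between -0.67 and -0.30 up to 30 kb, -1.11 between 30 and 35 kb and -1.79 between 35 and 40 kb. In that last stretch the median linear intensity was 259 in the maternal deletion and 1153 and 1272 in the wild types, 21.2% of wild type. The bin with the largest fall, chr7:66560001-66570000, had 0.67 against 2.28 and 2.23, a change of -1.58 (SE 0.047, limma adjusted p = 0.0024). The stretch from 25 to 30 kb was far brighter, with median intensities of 24968 against 30816 and 27926, and changed by only -0.30. Its minus strand was bright too, at 2273 against 2516 and 2670. In the paternal deletion that strand changed by -0.80 there, against -1.33 and -2.51 in the stretches on either side. What these bright probes read was not tested. Past 40 kb the plus-strand change shrank from -1.08 to -0.07 at 60 to 75 kb. A single change point put a step in the loss between probes starting at 66575775 and 66575854, with a mean change of -1.34 before it and -0.18 after it. The loss did not end there: the change was -0.45 between 50 and 55 kb and -0.32 between 55 and 60 kb. The 30 kb after the Ube3a block (chr7:66570001-66600000) were lower as a whole, at 0.11 against 0.58 and 0.45, a change of -0.40 (limma adjusted p = 4.3e-06). Both wild types lay higher there.

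Over the spared 5′ part the plus-strand level was 1.54 in the maternal deletion and 0.98 and 0.91 in the wild types. It stood above both wild types. The change was 0.60 (SE 0.063), a 1.52-fold higher level, with a limma adjusted p of 4.8e-09, which became 0.145 with the double deletions in the fit and 0.060 with all 8 samples. Of the 809 tested probes 335 (41.4%) were called higher, where 8.5% of all tested probes were, and 3 of its 5 bins were called higher, where 15.4% of all bins were. The last of these bins, chr7:66520001-66530000, straddles the edge.

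The rise did not cover the whole 5′ part. A change point on the paternal deletion array, and one on the maternal deletion array, put its onset between the same probes, starting at 66502517 and 66502581, which is 24.3 kb below the edge. From there to the edge the level was 1.85 in the maternal deletion against 0.82 and 0.75, over 423 probes, of which 405 (95.7%) were above both wild types, against 25.3% of all probes on the array. The change was 1.06, and the linear median intensity was 503 against 180 and 173. In the 22.6 kb of the 5′ part before the onset, which includes the start of the Ube3a block, the level was 1.05 against 0.997 and 0.94, a change of 0.08 over 410 probes, of which 199 (48.5%) were above both, also a larger share than over all probes. The split at the onset was drawn after the values were seen and has no test. In steps of 5 kb from the edge towards the promoter the change was 1.15, 1.08, 0.96, 1.05 and 0.91, and then 0.07 between 25 and 30 kb. On the log2 scale the gain thus varied little over its length. On the linear scale the median intensity added per probe was 169 next to the edge, then 233, 301, 345 and 353, while the ratio of the median intensities went from 3.53 to 2.12, and both dropped between 25 and 30 kb, to 7.27 and 0.995. The 100 kb below Ube3a were at 2.28 against 2.35 and 2.32 on the plus strand (limma adjusted p = 0.56).

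**Figure D2:**
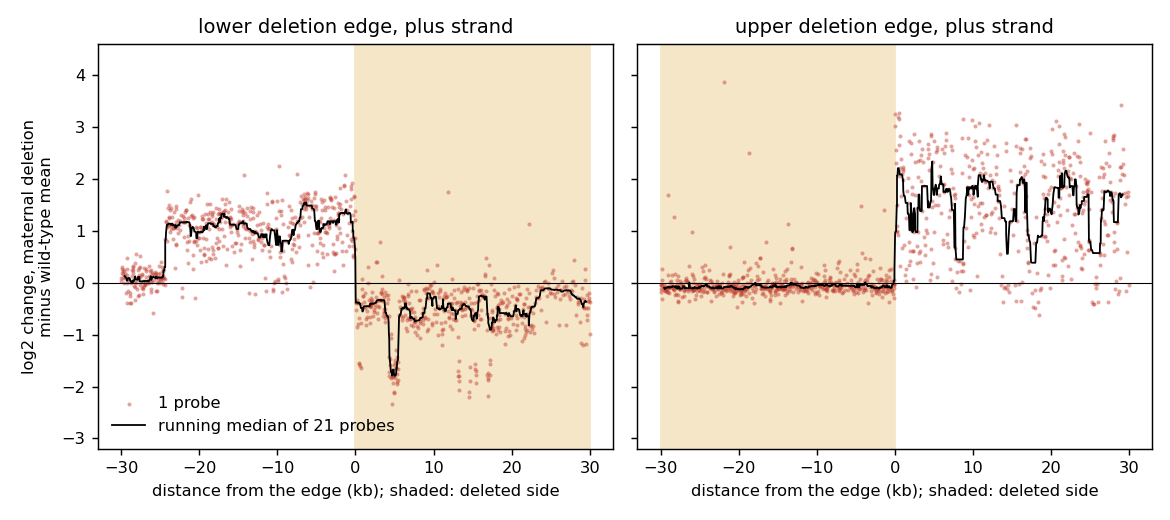
Log2 change of each plus-strand probe (points, maternal deletion minus the wild-type mean) against its distance in kb from the lower edge (left) and the upper edge (right), with a running median of 21 probes and the deleted side shaded. At the lower edge the mean change steps from 0.96 to -0.60, and at the upper edge from -0.03 to 1.49; the gain at the lower edge begins 24.3 kb below it.

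Beyond the upper edge, on DNA that both chromosomes keep, plus-strand RNA was higher over the whole tiled length. In the nearer upper flank (chr7:67147710-67300000) the level was 1.41 in the maternal deletion and 0.26 and 0.26 in the wild types. The change was 1.15 (SE 0.063), a 2.22-fold higher level, with a limma adjusted p of 5.5e-15, or 0.067 with the double deletions in the fit. Here 99.6% of the probes were well above background with the maternal deletion, and 63.0% and 62.5% with wild type. The change ran from 0.97 to 3.30 over the settings tried, largest with background subtracted. The median background-subtracted intensity was 231 in the maternal deletion and 17.5 and 16.5 in the wild types. All 15 bins were called higher, where 15.4% of all bins were, and 1584 of 2407 tested probes (65.8%) were, where 8.5% of all tested probes were. Many probes here were tested only because they were well above background with the maternal deletion, which favours rises.

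In the farther upper flank (chr7:67300001-67700765) the level was 1.20 against 0.71 and 0.70. The change was 0.50 (SE 0.063, limma adjusted p = 1.4e-07, or 0.067 with the double deletions). The maternal deletion was above both wild types in all 41 bins, where 22.8% of all bins were. Of the 41, 36 were called higher, where 15.4% of all bins were. Here too many probes were tested only because of the maternal deletion array. The 10 bins with the largest rise anywhere on the array all lay in the nearer flank, on the plus strand, between 67150001 and 67300000, with changes of 1.04 to 1.60. The bin next to the break, chr7:67150001-67160000, rose the most, from 0.06 and 0.06 in the wild types to 1.66 in the maternal deletion (SE 0.040, limma adjusted p = 0.0024).

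**Figure D3:**
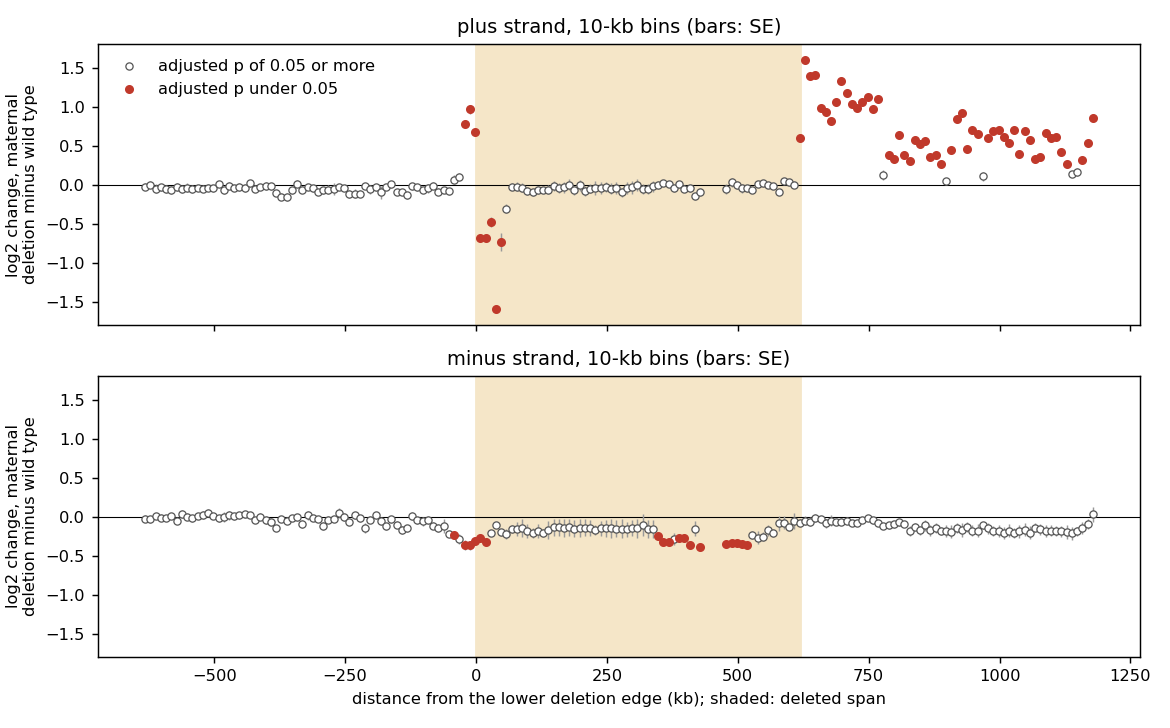
Log2 change of each 10-kb bin with its SE (y axis, maternal deletion minus wild type) against the distance from the lower deletion edge in kb (x axis), plus strand above and minus strand below; filled points have a limma adjusted p under 0.05 and the deleted span is shaded. Of 178 plus-strand bins 55 are called higher and 5 lower, and of 178 minus-strand bins 18 are called lower.

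On this log2 scale the change was largest at the break and smaller farther away. In the first 2 kb past the upper edge the plus-strand change was 1.69, with a level of 2.08 against 0.40 and 0.37. It was 1.43 between 10 and 20 kb, 1.24 between 20 and 50 kb, 1.06 between 50 and 100 kb and 1.05 between 100 and 150 kb. Between 150 and 200 kb it dropped to 0.45. It did not fall steadily from there, with 0.66 between 300 and 350 kb, and was 0.30 in the last stretch, from 500 kb past the break to the end of the tiling. Because plus-strand RNA was still higher at the end of the tiling, the data do not show where the rise stops.

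The size of the rise varied with the wild-type level of the bin. That level is also the one subtracted to give the change, so this order is a description and was not tested. In the farther flank the 12 bins with a wild-type level under 0 rose by a median of 0.66, the 17 between 0 and 1 by 0.52, the 6 between 1 and 2 by 0.34 and the 6 over 2 by 0.24. In the nearer flank the same classes gave 1.13 in 5 bins, 1.05 in 8 bins and 0.90 in 2 bins. On the linear scale the median intensity added per probe was 331 in the first 2 kb, 262 and 320 in the next 2 ranges, 182 between 20 and 50 kb, 110 between 100 and 150 kb, 25.5 between 250 and 300 kb, 62.0 between 300 and 350 kb and 17.3 in the last stretch. The ratio of the median intensities had another order, with 4.34 in the first 2 kb, 18.5 between 2 and 5 kb, 15.95 between 100 and 150 kb and 2.36 in the last stretch. Which distance shows the largest rise therefore depends on the scale.

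**Figure D4:**
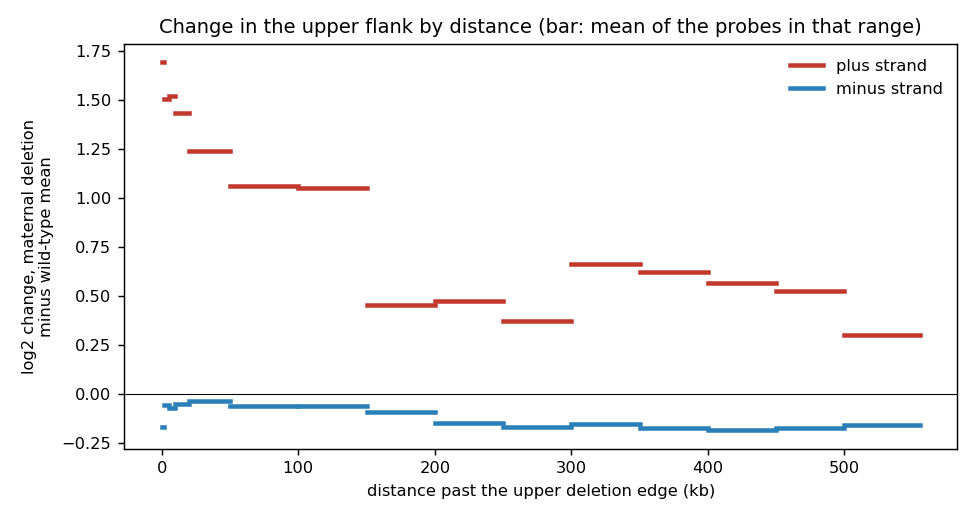
Mean log2 change (y axis, maternal deletion minus the wild-type mean) of the probes in successive ranges of distance past the upper deletion edge in kb (x axis); each bar spans its range, in red for the plus and blue for the minus strand. The plus strand goes, not steadily, from 1.69 in the range next to the edge to a mean of 0.30 over the last range. The minus strand lies between -0.19 and -0.04.

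Between these places the plus strand was close to wild type. The deleted span from 66600001 to the upper edge was read in 5 regions. For brevity, part 1 is chr7:66600001-66870000, part 2 is chr7:66870001-66930000, part 3 is chr7:66930001-67060000, part 4 is chr7:67060001-67120000 and the Snrpn end is chr7:67120001-67147709. On the plus strand part 1 was at 0.47 against 0.56 and 0.46, part 2 at 0.83 against 0.86 and 0.83, and part 3 at 0.95 against 1.02 and 0.96. Part 4 was at 0.53 against 0.53 and 0.52, and the Snrpn end at 0.04 against 0.02 and 0.0047. None of the 5 passed the test (limma adjusted p from 0.66 to 0.98), and their changes lay between -0.04 and 0.03. These dim regions depend on the background correction: the Snrpn end was called higher with a normexp offset of 0 (0.18), with the scanner software's processed signal (0.16) and with background subtracted (0.40), and parts 2 and 4 were called higher with background subtracted (0.26 each). In the 694 probes before the upper edge the mean change was -0.03 and in the 511 after it 0.90 on the paternal deletion array, and on the maternal deletion array -0.03 and 1.49. The only plus-strand bin of this span called higher, chr7:67140001-67150000, straddles the upper edge. Below Ube3a, the outer lower flank and the lower intergenic flank, from 65890585 to 66380000, changed by -0.03 and -0.06 on the plus strand and did not pass the test.

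On the minus strand, Ube3a-ATS remained at a high level in the maternal deletion and was somewhat lower than in the wild types. Opposite the 3′ part of Ube3a, which only the paternal chromosome still carries, the level was 1.27 against 1.48 and 1.53. Both wild types lay higher, and the change was -0.23 (SE 0.063, limma adjusted p = 0.0028). On the linear scale it kept 75.9% of the wild-type median, where the plus strand of the same DNA kept 40.2%. Opposite the spared 5′ part the level was 0.65 against 0.92 and 0.997, a change of -0.31 (limma adjusted p = 0.00014). Of the 832 probes there 88.5% were below both wild types, against 53.7% of all probes on the array. On the minus strand of the farther upper flank, outside the deletion, the share was 72.8%. Within an array, the minus strand of the 3′ part was above that of the 5′ part by 0.62 in the maternal deletion and by 0.56 and 0.53 in the wild types, a change of 0.08 that did not pass the test (limma adjusted p = 0.31). On the plus strand the same difference was -0.82 against 0.63 and 0.64, a change of -1.46 (SE 0.067, limma adjusted p = 1.4e-14).

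Further along the Snrpn transcript, part 1 holds the minus-strand bin with the highest wild-type level, 7.74 (chr7:66650001-66660000). In the paternal deletion that bin changed by only -0.38, where part 1 as a whole changed by -5.07. The bin is also bright on the plus strand (4.54 in wild type), so it is not read as the level of this transcript. The level of part 1 was 5.28 in the maternal deletion and 5.54 and 5.34 in the wild types. Its change of -0.16 passed the test in limma (adjusted p = 0.041), but the wild types themselves differed by more than that. The call was kept in only 4 of 16 alternatives. In part 2 the level was 2.30 against 2.57 and 2.62, a change of -0.29, and in part 3 it was 5.10 against 5.44 and 5.41, a change of -0.32 (limma adjusted p = 0.00033 and 0.0001). In both the maternal deletion was below wild types that lay close together. In part 4 the level was 2.95 against 3.19 and 3.06, a change of -0.18, and at the Snrpn end 2.51 against 2.65 and 2.54, a change of -0.09 that did not pass the test (adjusted p = 0.30).

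These minus-strand values stand on a general background of lower values. The maternal deletion was below both wild types in 61.8% of all bins and in 53.7% of all probes, and the median change of the tested probes outside the locus was -0.04. On the minus strand 149 of 178 bins were below both, among them 40 of the 41 of the farther upper flank, which lies outside the deletion. That flank was at 1.33 against 1.55 and 1.44, a change of -0.16 that also passed the test (limma adjusted p = 0.036). Of the 26 regions 50% were called, 38.5% lower and 11.5% higher. At the level of bins the minus-strand calls were narrower: 4 of 5 bins of the 5′ part, 2 of 4 of the 3′ part, 5 of 6 of part 2 and 7 of 9 of part 3 were called lower, which makes up all 18 calls of that strand. Of all bins on both strands 6.46% were called lower. The largest minus-strand fall, in the bin chr7:66950001-66960000, was -0.39 (4.81 against 5.22 and 5.18, SE 0.044, limma adjusted p = 0.015). That bin held only 27 probes. It borders a gap in part 3, since no bin of either strand was read between 66960000 and 67000001. The cause of the lower values was not tested. Quantile normalization turned the change of part 1 to 0.12 and that of part 4 to 0.01. In a difference within an array the percentile to which the array was scaled cancels, but the background correction does not. The plus minus the minus strand changed by 0.28 in parts 2 and 3 and by 0.17 in part 4, which all passed the test. It changed by 0.11 in part 1 and at the Snrpn end, which did not. The minus strand of the 5′ part minus that of the 100 kb below Ube3a changed by -0.21, which passed. The call of part 4 was kept in 7 of 16 alternatives and that of the farther flank also in 7. With the double deletions in the fit none of the minus-strand regions passed the test.

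**Figure D5:**
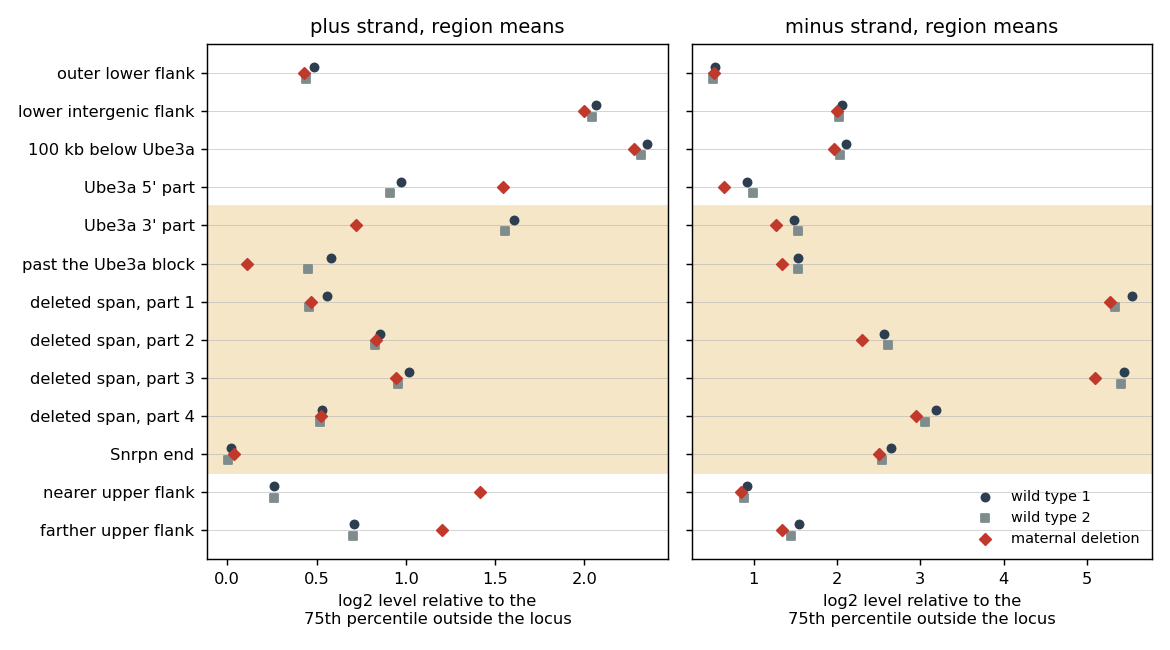
Mean log2 level of each region (x axis, relative to the 75th percentile outside the locus) in the maternal deletion and both wild types, plus strand at left and minus strand at right, with the deleted regions shaded. The maternal deletion stands apart from both wild types on the plus strand at Ube3a, just past it and in both upper flanks, and sits slightly to the left of both in most minus-strand regions.

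Comparing the strands within an array cancels the percentile to which the array was scaled, but not the background correction. Over the alternatives run, the change of this difference in the nearer upper flank went from 1.03 to 3.39. Different probes read the strands, so the difference shows no order of RNA levels between them, and only its change between arrays is read. Of the 21 differences tested 61.9% were called. Over the spared 5′ part the plus minus the minus strand was 0.05 and -0.08 in the wild types and 0.90 in the maternal deletion. Over the deleted 3′ part the same difference was 0.12 and 0.03 in the wild types and -0.55 in the maternal deletion. Its change was 0.91 over the 5′ part (limma adjusted p = 3.7e-11) and -0.63 over the 3′ part (limma adjusted p = 1.6e-08), both with an SE of 0.067.

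In the nearer upper flank the plus minus the minus strand was 0.57 in the maternal deletion against -0.66 and -0.62 in the wild types, a change of 1.21 (limma adjusted p = 3.0e-13). Each locus probe has a partner for the other strand at the same position, and here the plus-strand probe was the brighter of the pair at 77.1% of positions in the maternal deletion and at 25.1% and 24.6% in the wild types. In the farther flank the shares were 48.4% against 21.1% and 22.0%. Nearly the same pairs were read on every array, so the shares are comparable between arrays. In the order maternal deletion, wild type 1 and wild type 2 there were 2431, 2428 and 2431 pairs in the nearer flank. In the farther flank there were 5840, 5838 and 5838. Near and far also differed on the plus strand itself: the nearer minus the farther flank was 0.21 in the maternal deletion against -0.45 and -0.44 (change 0.65, limma adjusted p = 8.9e-09), and the minus strand gave a change of 0.10 that did not pass the test (adjusted p = 0.18). With the double deletions in the fit, or with either wild type left out, none of the 21 differences was called; at an unadjusted p under 0.05 there were 5 with the double deletions, 1 without wild type 1 and 0 without wild type 2.

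The other deletions share the wild-type arrays with this comparison, so their values are only set side by side. On the plus strand of the 5′ part the change from wild type was 0.60 in the maternal deletion, 0.38 in the paternal deletion and 0.66 and 0.94 in the double deletions. In the nearer upper flank it was 1.15, 0.69, 1.55 and 1.19 in the same order, and in the farther flank 0.50, 0.23, 0.60 and 0.54. All 4 deletion samples were thus higher than both wild types at these places, the paternal deletion by the least. Over the 3′ part it was -0.86, -0.15, -0.23 and -0.46. The maternal deletion was the lowest there, although the double deletions carry the same maternal deletion.

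Within the 5′ part, 1 double deletion did not share the sharp onset. From the onset to the edge the change was 1.06 in the maternal deletion, 0.71 in the paternal deletion and 1.23 and 1.23 in the double deletions. Before the onset it was 0.08, 0.02 and 0.03 in the maternal deletion, the paternal deletion and the first double deletion, and 0.58 in the second. In the longest run of the 3′ part, chr7:66564115-66566145, the change was -1.90 in the maternal deletion and -0.14 in the paternal deletion. It was -0.17 and -1.01 in the double deletions. The run was chosen by its fall in the maternal deletion, so that this sample is the lowest in it supports nothing. On the minus strand opposite the 3′ part the change was -0.23 in the maternal deletion, -1.87 in the paternal deletion and -1.76 and -1.16 in the double deletions. By means over the whole 3′ part, the maternal deletion had the most minus-strand and the least plus-strand RNA of the 4 samples.

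Outside the locus, 44 of 2522 tested probes were called, 42 higher and 2 lower. By strand 1.53% (plus) and 2.3% (minus) were called higher, where 8.5% of all tested probes were. A probe bright on the maternal deletion array alone was tested, but otherwise both wild types had to be bright. That filter favours rises, so the split into higher and lower is not read. The largest rises were at the single probes A_67_P06251602 on chromosome 7 (2.09 against -1.47 and -1.30) and A_67_P05951651 on chromosome 6 (1.76 against -1.43 and -1.46). Inside the locus the largest rise of a probe was also isolated: CUST_9166_PI425394930, a plus-strand probe of part 2 at chr7:66898735-66898794, had 3.47 against -1.48 and -1.34, while its 17 plus-strand neighbours within 500 bases changed by -0.17 to -0.02. The largest minus-strand rise, RC_CUST_3682_PI425394930 at chr7:66295495-66295554 (2.52 against -0.92 and -1.06), had 10 such neighbours, with changes from -0.32 to 0.86 and a median of -0.01. The largest plus-strand fall, at A_67_P14807158 (-1.30 against -1.20 and 6.87), rests on wild type 2 alone and did not pass the test. Neighbours of the probes outside the locus were not examined.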

How the data were processed

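The arrays measured total RNA (15 µg), labelled per the labels' protocols as Cy5 first-strand cDNA made with random hexamers. All 8 arrays lie on 1 slide and 1 scan, so no batch could be fitted. The authors deposited linear intensity values of single spots; per the file headers these come from Agilent Feature Extraction 10.7.3.1 on an mm9 design, while the submitters' processing notes name 10.9. The strand was read from coordinate order. Red median intensity was corrected by normexp (offset 50) in limma 3.58.1 (R 4.3.3), put on log2 and scaled to the 75th percentile of the probes over 100 kb outside the tiled span. Control and outlier spots were left out and spots of a probe averaged. Probes well above background on the maternal deletion or on both wild types were tested; bins needed 3 of them. Tests were two-sided (lmFit, eBayes, Benjamini-Hochberg, threshold 0.05), with 1 residual degree of freedom and, for regions, 1 common spread. The fits were tested on simulated data. Members, regions and lists were chosen with earlier results of these data known. Bins named are the 10 with the largest rise and fall among those called, always with Ube3a and the Snrpn transcript; the gene and marker lists need gene names and were not used, so probes are named by identifier. Alternatives varied scale, background, column, filter, bin width, summary and samples.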

Additional observations from a re-analysis of the deposited data

How the results depend on the processing

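The direction of all 4 main plus-strand regions was kept under every alternative run, and their calls under all but those with other samples. With the 6 total RNA samples and the double deletions as 1 group, limma called 0 regions, 0 bins, 0 probes (6163 at an unadjusted p under 0.05) and 0 within-array differences; the changes were -0.86 for the 3′ part, 0.60 for the 5′ part, 1.15 for the nearer and 0.50 for the farther upper flank. With all 8 samples it called 3 regions, and the 5′ part, again at 0.60, was not one of them. Leaving out either wild type, with the spread taken from the double deletions, gave 0 to 0 calls for regions, bins, probes (3055 and 2966 at an unadjusted p under 0.05) and within-array differences, with changes of -0.89 to -0.84 for the 3′ part, 0.57 to 0.63 for the 5′ part, 1.15 to 1.15 for the nearer flank and 0.49 to 0.50 for the farther. Over all settings these 4 ranged from -1.34 to -0.73, from 0.46 to 0.80, from 0.97 to 3.30 and from 0.37 to 2.04, the upper flanks being largest with background subtracted.

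Quantile normalization called 6 regions, 3 higher and 3 lower, against 3 and 10, moved the median of all probes by 0.12, and reversed minus-strand part 1 (0.12) and part 4 (0.0052). Bins were split 66 higher to 15 lower there, 58 to 40 with the 75th percentile of all probes and 49 to 4 with all 8 samples, against 55 to 23. Background subtraction called 121 bins and turned the plus strand of parts 2 and 4 to 0.26 each. The authors' series matrix called 126 bins, 61 higher and 65 lower, and 2690 probes of the fewer it lists. Bins of 20 kb gave 43 calls and bins of 5 kb 142. Requiring all 3 arrays well above background left 2144 probe calls. The cause of these differences was not tested, apart from the number of features or samples that an alternative itself changes. The alternative with mean pixel intensity was not run, since that column was not analysed here. No paired analysis was possible because the groups compared share fewer than 2 replicate numbers.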
